A study of Mus musculus with 8 samples.

Results

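The BCL-2 family sets whether a cell lives or dies by the mitochondrial route of apoptosis. The 10 genes described here were the listed core of that family, taken by symbol from the count tables: the survival genes *Bcl2*, *Bcl2l1* (which encodes BCL-XL) and *Mcl1*, the BH3-only genes *Bcl2l11* (BIM), *Bbc3* (PUMA), *Pmaip1* (NOXA), *Bid* and *Bad*, and the effectors *Bax* and *Bak1*. All 10 were among the 48321 symbols of the tables, and 9 of them passed the filter on low counts that left 12597 genes for testing. *Bbc3* did not pass, with 2 to 5 counts in each library. RNA was sequenced from splenic CD8+ T cells of C57BL/6 mice, the cytotoxic lineage of T lymphocytes, at day 0 and after culture at day 5. The labels gave the genotype as WT or KO, so the 4 groups were WT day 0, KO day 0, WT day 5 and KO day 5, with 2 libraries each. The series describes floxed *Satb1* alleles with *E8I-cre*, which drives the Cre recombinase in mature cells of the CD8 lineage, and its title calls the cells stimulated in vitro. *Satb1* encodes a nuclear protein that organises chromatin in T cells. Whether the WT mice carried the floxed alleles or the Cre, the age and number of the mice, and the agents used in culture were not given in the sources used here.

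In healthy cells the survival proteins hold BAX and BAK in check and bind BH3-only proteins. BH3-only proteins respond to stress or loss of growth signals, and when they exceed the survival proteins BAX and BAK open the mitochondrial outer membrane and release cytochrome c. In T cells, resting cells depend on MCL-1 and on BCL-2, which IL-7 sustains, BCL-XL is associated with activation, and BIM is a main mediator of death when cytokine is withdrawn.

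Gene totals ranged from 4170126 to 11117971 counts per library, the deepest being replicate 1 of KO day 0, and reads assigned to genes made up 21.2% to 24.5% of the records. The targeted gene ran against its label at day 0. *Satb1* was at 97.8 and 91.6 CPM (counts of the gene per 1000000 counts of the TMM-scaled library total) in WT and at 144 and 125 CPM in the KO-labelled cells, whereas at day 5 it was at 96.5 and 116 CPM in WT and at 56.5 and 62.3 CPM in the KO-labelled cells. The log2 fold change was 0.51 at day 0 (FDR 0.125) and -0.84 at day 5 (FDR 0.0162, quasi-likelihood test in edgeR, adjusted by the Benjamini-Hochberg method). A count per gene does not show the loss of floxed exons, so the KO groups are called KO-labelled, and each genotype direction at day 0 rests on that label. The 6 CD8+ T cell markers summed to 12130 to 13030 CPM at day 0 and to 7958 to 9001 CPM at day 5, the 3 CD4+ markers to at most 6.26 CPM, and the 4 erythroid markers to at most 0.905 CPM. The 5 B cell markers summed to 67.4 to 166 CPM, nearly all of it *Cd79b*. The 5 myeloid markers summed to 4.06 to 19.0 CPM, and the 4 NK cell markers to 10.7 to 17.3 CPM at day 0 and 37.5 to 54.2 CPM at day 5, most of it *Eomes*, which activated CD8+ T cells also express. Labels number the libraries of a group without saying that they came from separate mice, so p-values measure the spread between these libraries, which may be technical.

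The DNA just upstream of the starts of 4 genes is shown. It covers the 3 survival genes, which were called between days in both genotypes, and *Bcl2l11*, the main BH3-only gene of cytokine withdrawal. *Bcl2l11* was called between days in WT only, and *Pmaip1*, which was called in both genotypes, is not shown. Each line is the 250 bases before a RefSeq start (GRCm38.p6), 5′ to 3′ on the gene's strand, with capitals marking matches to a motif. They are chr1:106714291-106714540 on the minus strand for *Bcl2*, chr2:152831729-152831978 on the minus strand for the most upstream start of *Bcl2l1*, chr3:95658471-95658720 on the plus strand for *Mcl1* and chr2:128125788-128126037 on the plus strand for the most upstream start of *Bcl2l11*.
Bcl2: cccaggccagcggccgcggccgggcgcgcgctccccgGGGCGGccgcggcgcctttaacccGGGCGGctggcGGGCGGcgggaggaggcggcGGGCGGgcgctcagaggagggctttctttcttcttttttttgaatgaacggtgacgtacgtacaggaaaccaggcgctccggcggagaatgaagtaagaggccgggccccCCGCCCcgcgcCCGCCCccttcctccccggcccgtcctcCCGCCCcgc
Bcl2l1: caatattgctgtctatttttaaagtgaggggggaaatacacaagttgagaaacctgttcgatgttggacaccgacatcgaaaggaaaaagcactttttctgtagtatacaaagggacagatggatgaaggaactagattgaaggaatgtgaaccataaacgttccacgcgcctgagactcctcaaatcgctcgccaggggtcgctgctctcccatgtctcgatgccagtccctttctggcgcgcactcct
Mcl1: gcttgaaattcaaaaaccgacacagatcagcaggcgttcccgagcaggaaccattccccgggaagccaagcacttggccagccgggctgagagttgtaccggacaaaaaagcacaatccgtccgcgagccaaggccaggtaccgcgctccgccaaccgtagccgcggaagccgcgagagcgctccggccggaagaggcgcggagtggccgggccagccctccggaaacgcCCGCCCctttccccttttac
Bcl2l11: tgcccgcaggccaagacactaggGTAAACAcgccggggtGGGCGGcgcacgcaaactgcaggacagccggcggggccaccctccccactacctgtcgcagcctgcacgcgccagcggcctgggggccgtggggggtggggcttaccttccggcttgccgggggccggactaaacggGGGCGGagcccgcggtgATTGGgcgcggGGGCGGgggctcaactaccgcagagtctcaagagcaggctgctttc

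The *Bcl2* window had a GC content of 74.8% and held 7 GC boxes, while the *Bcl2l1* window had 47.6% and held none of the motifs searched. The *Mcl1* window (64.4% GC) held 1 GC box. The *Bcl2l11* window (72% GC) held 3 GC boxes, a CCAAT box and a match to the FOXO motif that began 227 bases before the start. The median GC content of all 32851 windows was 52.4%. The search covered both strands for the GC box (GGGCGG, in 32.7% of all windows), the CCAAT box (CCAAT, 33.8%), the FOXO motif (GTAAACA, 3.17%), the STAT motif (TTCNNNGAA, 7.02%), the E-box (CACGTG, 6.02%), the CRE (TGACGTCA, 1.55%) and the AP-1 motif (TGANTCA, 6.75%). No matches overlapped one another in these 4 windows. Windows of 9 of the 10 genes are described here, all except *Pmaip1*. A second *Bcl2l11* window held 2 GC boxes and 2 CCAAT boxes, and the other windows of *Bcl2l1* held none of the motifs. Among the other members, *Bid*, *Bbc3*, *Bad* and *Bax* had at least 1 GC box in a window, and *Bak1* had none of the motifs. A window of *Bbc3* held a FOXO match, a window each of *Bax* and *Bbc3* held an E-box, and a window each of *Bbc3* and *Bad* held a CCAAT box. A match is a run of letters and was not tied to binding in these cells.

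All 3 survival genes changed in culture, and not in one direction. *Bcl2* and *Bcl2l1* rose and *Mcl1* fell between day 0 and day 5 in both genotypes, and among the genes that promote death *Pmaip1* rose in both. In WT cells 5 of the 9 tested members were called, 4 higher and 1 lower, in a comparison that called 48.3% of all genes (24.7% higher and 23.6% lower). In the KO-labelled cells 6 of 9 were called, 5 higher and 1 lower, where 50.2% of all genes were called (26.2% higher and 24.0% lower). The members' median log2 fold change was 0.33 in WT and 0.83 in the KO-labelled cells, against -0.039 and -0.046 over all tested genes. With 9 members, 5 and 6 calls lie near what these shares of all genes would give. When libraries were scaled by their totals only, the median of all genes shifted by -0.14 in WT and -0.18 in the KO-labelled cells, and the genes called in the latter changed from 3296 higher and 3029 lower to 2755 higher and 3936 lower. Counts of members kept within 1.5 times of these values under each alternative. In bulk samples such as these, fewer cells of a type and less RNA of a gene per cell cannot be told apart. The summed CD8+ T cell markers were lower at day 5 and the summed NK cell markers higher, at the values given above, but markers within a list differed. Of the 6 CD8+ markers, 4 were called lower in WT and 3 in the KO-labelled cells. *Cd8b1* fell by 1.64 and 1.36, while *Cd3d* (0.024 and 0.035) and *Cd3g* (-0.14 and -0.049) were called in neither. The NK cell sum rose through *Eomes*, and *Ncr1* and *Klrb1c* stayed under 1 CPM in each library. The part of these markers in the changes of the members was not tested.

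**Figure D1:**
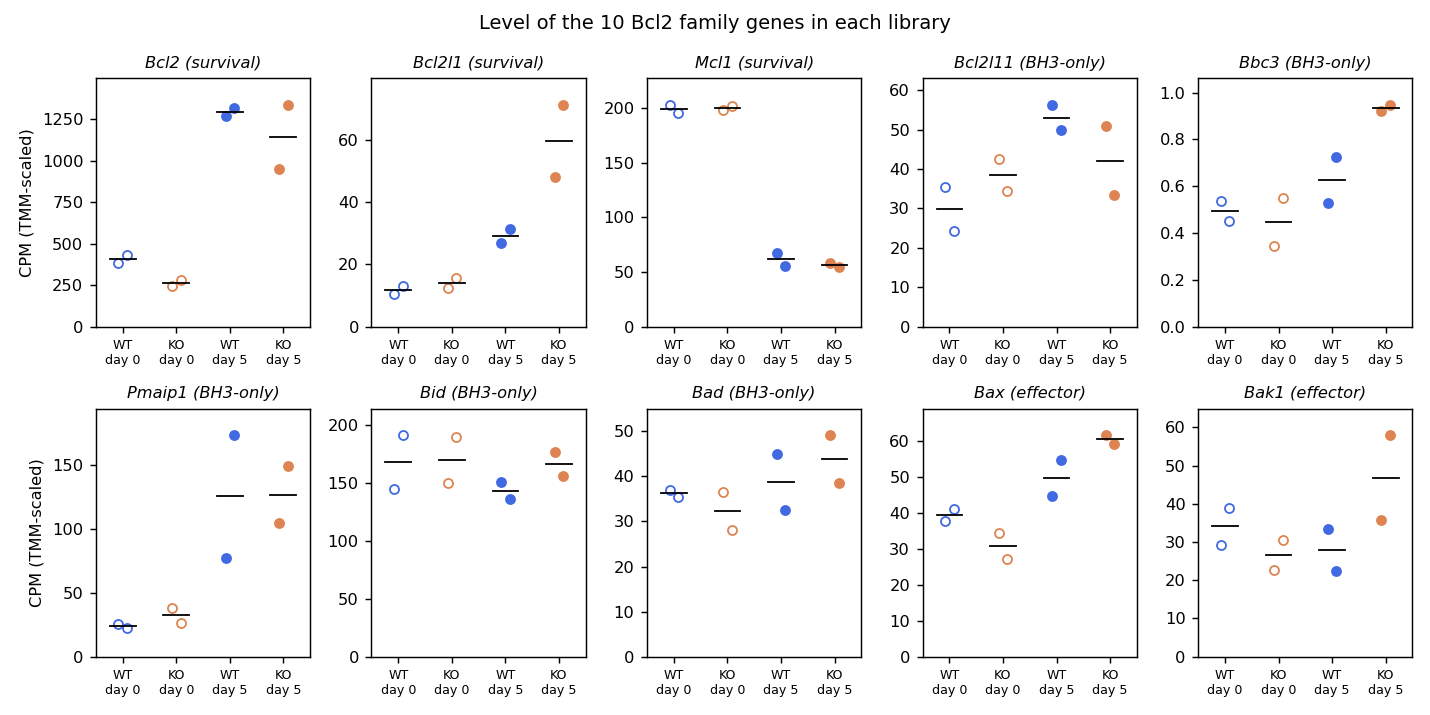
Level of each of the 10 genes in CPM (y axis, linear, from 0, a separate scale for each gene) in the 8 libraries, by genotype and day (x axis). Points are libraries, open at day 0 and filled at day 5, blue for WT and orange for the KO-labelled cells, and the bar is the mean of 2. *Bcl2*, *Bcl2l1* and *Pmaip1* stood higher at day 5 in each genotype, *Mcl1* lower, and *Bbc3* lay at or near the floor of 3 counts throughout.

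*Bcl2* (chromosome 1, 106538178 to 106714274, minus strand, GRCm38) was at 384 and 430 CPM at WT day 0, 245 and 281 at KO day 0, 1271 and 1316 at WT day 5 and 948 and 1336 CPM at KO day 5. Each day 5 library lay above each day 0 library, and the 2 KO-labelled libraries at day 0 lay below both WT libraries. The rise in culture was 1.67 on the log2 scale in WT (SE 0.16, FDR 2.54e-06) and 2.12 in the KO-labelled cells (SE 0.16, FDR 2.80e-07, edgeR with Benjamini-Hochberg adjustment), or 3.18-fold and 4.35-fold. These calls held under each of 18 alternatives. An annotated gene on the other strand covers 6.09% of the *Bcl2* exon length, and the strand setting of the counting was not given in the sources used here.

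At day 0 the *Bcl2* difference between genotypes was the largest of any tested member, lower by 0.63 on the log2 scale in the KO-labelled cells (SE 0.15, 95% interval -0.96 to -0.30). It did not pass the threshold (FDR 0.0655, edgeR with Benjamini-Hochberg adjustment), and 16.7% of all genes had a larger absolute change. Among 18 alternatives 8 called it, with log2 fold changes from -0.75 to -0.54 and FDR from 0.00205 to 0.359. Of the settings that left out 1 library, only those without a KO day 5 library gave a call (-0.63 for each replicate). The difference was not called when a library of the day 0 comparison itself was left out. It was then -0.71 and -0.55 without WT day 0 replicate 1 or 2, and -0.54 and -0.70 without KO day 0 replicate 1 or 2. At day 5 the difference was -0.18 (interval -0.51 to 0.15, FDR 0.665, edgeR), and the 2 KO-labelled libraries, at 948 and 1336 CPM, lay on both sides of the WT libraries.

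*Bcl2l1* (chromosome 2, 152780668 to 152831728, minus strand) encodes BCL-XL, the survival protein associated with activated lymphocytes. It was at 10.4 and 13.1 CPM at WT day 0, 12.5 and 15.6 at KO day 0, 27.0 and 31.6 at WT day 5 and 48.2 and 71.4 CPM at KO day 5. The groups overlapped at day 0, and at day 5 both KO-labelled libraries stood above both WT libraries. The rise in culture was 1.32 on the log2 scale in WT (SE 0.25, FDR 0.000898) and 2.103 in the KO-labelled cells (SE 0.23, FDR 1.06e-05, edgeR with Benjamini-Hochberg adjustment). Both calls held under each alternative.

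At day 5 *Bcl2l1* was the 1 member of 9 called between the genotypes, where 1.63% of all genes were called (1.31% higher and 0.318% lower in the KO-labelled cells). It was 2.05-fold higher in the KO-labelled cells, a log2 fold change of 1.03 (SE 0.23, interval 0.54 to 1.52, FDR 0.0401, edgeR with Benjamini-Hochberg adjustment), and 5.20% of all genes had a larger absolute change. The call stood close to the threshold: 9 of 18 alternatives lost it, with FDR from 0.00188 to 0.497 and log2 fold changes from 0.72 to 1.29. Leaving out KO day 5 replicate 2, the library at 71.4 CPM, gave the lowest value, 0.72 with FDR 0.497. The call was also lost without WT day 0 replicate 1 (1.03, FDR 0.0736) or 2 (1.03, FDR 0.0734), without WT day 5 replicate 1 (0.93, FDR 0.152) or 2 (1.15, FDR 0.11), and without KO day 5 replicate 1 (1.29, FDR 0.0565, all edgeR). The change between genotypes was 0.25 at day 0 (interval -0.31 to 0.81), and the genotype by day interaction was 0.78 (SE 0.34, FDR 0.376), so the genotype effects at the 2 days were not shown to differ.

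*Mcl1* (chromosome 3, 95658788 to 95663176, plus strand) encodes a short-lived survival protein that T cells need throughout life. Its level was 203 and 196 CPM at WT day 0 and 199 and 202 at KO day 0, and 67.7 and 55.2 at WT day 5 and 57.9 and 54.3 CPM at KO day 5. The days did not overlap and the genotypes did. *Mcl1* fell by 1.69 on the log2 scale in WT (SE 0.14, FDR 7.99e-07) and by 1.83 in the KO-labelled cells (SE 0.14, FDR 3.32e-07, edgeR with Benjamini-Hochberg adjustment), or 3.23-fold and 3.56-fold, and held under each alternative. Its differences between genotypes were 0.0064 at day 0 (interval -0.28 to 0.29) and -0.13 at day 5 (interval -0.44 to 0.17), the narrowest intervals of the family at either day.

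**Figure D2:**
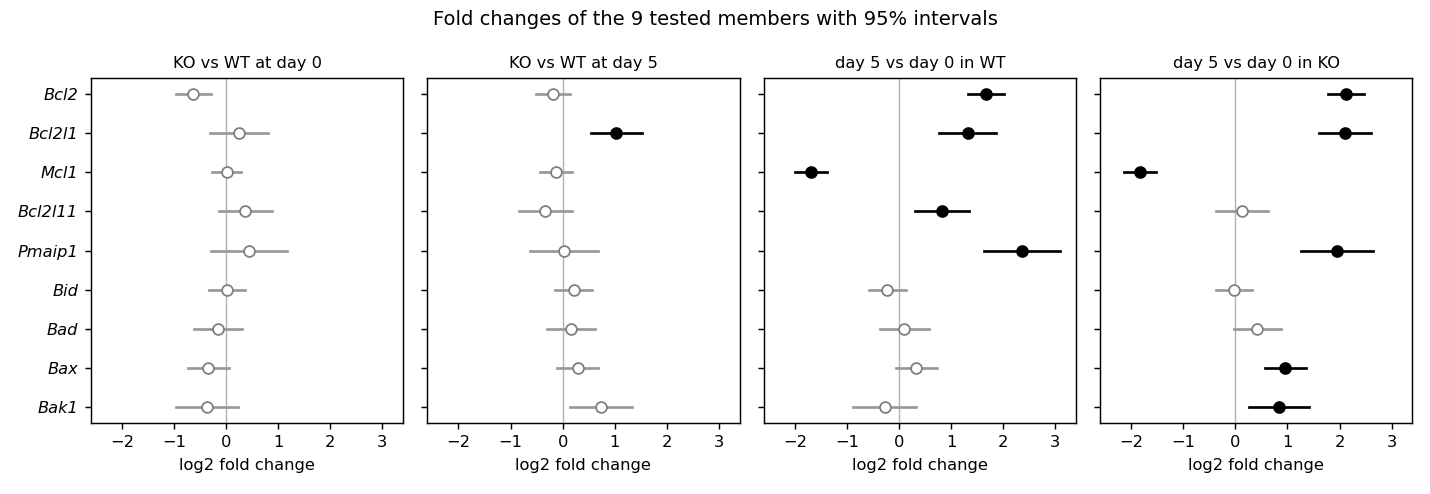
Log2 fold change (x axis) of the 9 tested members (rows) with its 95% interval from the edgeR fit over 8 libraries, in the 2 genotype comparisons and the 2 culture comparisons. Filled black points passed FDR 0.05 and open grey points did not. *Bcl2*, *Bcl2l1*, *Mcl1* and *Pmaip1* were called in both culture comparisons, *Bcl2l11* in WT, *Bax* and *Bak1* in the KO-labelled cells, and between genotypes *Bcl2l1* at day 5.

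Levels of different genes were compared per length, as TPM over the annotated exons. At day 0 *Mcl1* was the most abundant survival gene, at 165 and 164 TPM in WT and 170 in both KO-labelled libraries, ahead of *Bcl2* at 117 and 134 TPM in WT and 78.2 and 88.4 TPM in the KO-labelled cells. At day 5 the order was reversed, with *Bcl2* at 345 and 392 TPM in WT and 263 and 377 TPM in the KO-labelled cells and *Mcl1* between 41.1 and 49.3 TPM in the 4 libraries. The ratio of *Bcl2* to *Mcl1* TPM was thus 0.706 and 0.819 in WT and 0.461 and 0.519 in the KO-labelled cells at day 0. At day 5 it was 7.003 and 8.90 in WT and 6.11 and 9.17 in the KO-labelled cells, so that the 2 genotypes did not overlap at day 0 and did at day 5. *Bcl2l1* made up 2.19% to 3.65% of the summed survival TPM at day 0, and at day 5 3.58% and 4.13% in WT and 8.02% and 8.78% in the KO-labelled cells. With the longest transcript as the length, the *Bcl2* share in WT day 0 replicate 2 was 48.9% and that of *Mcl1* 46.9%, so that their order in that library depended on the length used. TPM values rest on the annotated exons, not on the isoforms these cells use.

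**Figure D3:**
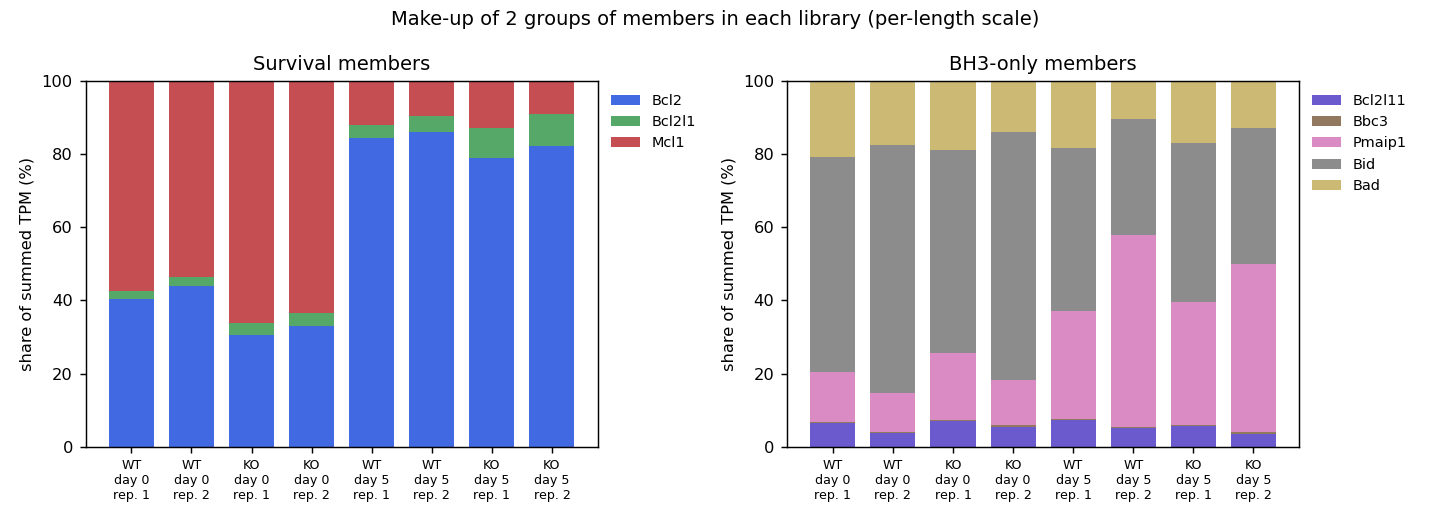
Share (y axis, % of summed TPM) of each survival gene (left) and each BH3-only gene (right) in the 8 libraries (x axis, genotype, day and replicate). *Bcl2* took 30.6% to 43.8% of the survival TPM at day 0 and 79.0% to 86.2% at day 5, and *Bid* and *Pmaip1* together made up most of the BH3-only TPM in each library.

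Among the BH3-only genes, *Pmaip1* had the largest change. *Pmaip1* (chromosome 18, 66458533 to 66465565, plus strand) encodes NOXA, which binds mainly MCL-1. It was at 25.8 and 22.8 CPM at WT day 0, 38.4 and 26.6 at KO day 0, 77.6 and 174 at WT day 5 and 105 and 149 CPM at KO day 5. Every day 5 library lay above every day 0 library, and the 2 WT libraries at day 5 lay further apart than those of any other group. The rise was 2.36 on the log2 scale in WT (SE 0.33, FDR 9.11e-05) and 1.95 in the KO-labelled cells (SE 0.32, FDR 0.000253, edgeR with Benjamini-Hochberg adjustment), and held under each alternative. Between genotypes it was 0.43 at day 0 (interval -0.30 to 1.16) and 0.025 at day 5 (interval -0.63 to 0.68), and neither was called. Its share of the BH3-only TPM was 10.5% to 18.5% at day 0 and 29.7% to 52.5% at day 5. The ratio of *Mcl1* to *Pmaip1* TPM was 4.14 to 6.85 at day 0 and 0.254 to 0.698 at day 5.

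*Bcl2l11* (chromosome 2, 128126038 to 128162547, plus strand) encodes BIM. It was at 35.4 and 24.2 CPM at WT day 0, 42.5 and 34.5 at KO day 0, 56.3 and 49.9 at WT day 5 and 51.0 and 33.3 CPM at KO day 5. The days did not overlap in WT and did in the KO-labelled cells. In WT *Bcl2l11* rose by 0.83 on the log2 scale (SE 0.24, FDR 0.0127), and in the KO-labelled cells the difference was 0.12 (interval -0.38 to 0.63, FDR 0.681, edgeR with Benjamini-Hochberg adjustment). The WT call was lost without WT day 0 replicate 2 (0.59, FDR 0.127) and without WT day 5 replicate 1 (0.76, FDR 0.0701, edgeR). The difference between the 2 culture effects, the interaction, was -0.70 (SE 0.33, FDR 0.416), so the culture effects were not shown to differ. *Bcl2l11* was higher by 0.37 in the KO-labelled cells at day 0 and lower by 0.33 at day 5, both with intervals that include 0. Its level per length was low, with 8.61 to 17.4 TPM in the 8 libraries.

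The other BH3-only genes showed no called change. *Bid* (chromosome 6, 120891930 to 120916853, minus strand), whose protein links death receptors to mitochondria after cleavage by caspase-8, was at 136 to 191 CPM in the 8 libraries, and its culture differences were -0.22 in WT (interval -0.58 to 0.13) and -0.027 in the KO-labelled cells (interval -0.38 to 0.33). *Bid* held the largest share of the BH3-only TPM in each day 0 library, 55.6% to 67.9%. Exons of *Bcl2l13* on the other strand cover 17.7% of the *Bid* exon length, and *Bcl2l13* itself fell in culture by 1.43 in WT and 1.32 in the KO-labelled cells. Whether reads of the shared stretch were counted for *Bid* depends on the strand setting, which was not given, and an effect on the *Bid* values was not tested. *Bad* (chromosome 19, 6941861 to 6951899, plus strand), whose protein is held inactive by phosphorylation and 14-3-3 binding, was at 28.1 to 49.1 CPM. Its culture differences were 0.10 in WT (interval -0.36 to 0.57) and 0.42 in the KO-labelled cells (interval -0.030 to 0.88, FDR 0.109, edgeR), and 20.5% of its exon length is shared with *Gpr137* on the other strand. *Bbc3* (chromosome 7, 16308393 to 16318205, plus strand), a p53 target that encodes PUMA, had 3 and 2 counts in WT and 4 and 3 in the KO-labelled cells at day 0, and 3 and 3 in WT and 5 and 5 in the KO-labelled cells at day 5. A change in *Bbc3* was not detectable at this depth, where 3 counts correspond to 0.257 to 0.723 CPM.

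The effectors were called in culture in the KO-labelled cells only, and a difference between genotypes in that effect did not pass its test. *Bax* (chromosome 7, 45461697 to 45466898, minus strand) was at 37.7 and 41.2 CPM at WT day 0, 34.4 and 27.2 at KO day 0, 44.6 and 54.7 at WT day 5 and 61.6 and 59.3 CPM at KO day 5. Both KO-labelled libraries lay below both WT libraries at day 0 and above them at day 5, where 43.4% and 45.6% of all genes had no overlap. In the KO-labelled cells *Bax* rose by 0.96 on the log2 scale in culture (SE 0.18, FDR 0.000678), a call that held under each alternative, and in WT the difference was 0.33 (interval -0.065 to 0.72, FDR 0.154, edgeR with Benjamini-Hochberg adjustment). Between genotypes the difference was -0.345 at day 0 (FDR 0.437) and 0.29 at day 5 (FDR 0.513, edgeR), neither of them called, and with the GC and length offset the day 0 value was -0.044 (FDR 0.963, edgeR). A *Gm45808* transcript on the same strand covers 12.2% of the *Bax* exon length.

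*Bak1* (chromosome 17, 27019810 to 27029009, minus strand) was at 29.3 and 38.9 CPM at WT day 0, 22.6 and 30.5 at KO day 0, 33.3 and 22.4 at WT day 5 and 35.7 and 57.9 CPM at KO day 5. The 2 KO day 5 libraries stood above those of WT day 5 and those of KO day 0, and the genotypes overlapped at day 0. In the KO-labelled cells *Bak1* rose by 0.83 on the log2 scale (SE 0.27, FDR 0.0205), and in WT the difference was -0.27 (interval -0.88 to 0.33, FDR 0.441, edgeR with Benjamini-Hochberg adjustment). The call was lost with scaling by library totals (0.65, FDR 0.0559), with an offset for GC and length (0.37, FDR 0.232), without KO day 0 replicate 1 (0.63, FDR 0.134) and without KO day 5 replicate 2 (0.45, FDR 0.266, all edgeR). Between genotypes *Bak1* differed by -0.37 at day 0 (interval -0.97 to 0.22) and by 0.74 at day 5 (SE 0.27, FDR 0.228, edgeR). The day 5 value was 0.34 without KO day 5 replicate 2, 0.49 without WT day 5 replicate 2 and 1.07 without WT day 5 replicate 1, and was called under none of the 18 alternatives. Exons of *Ggnbp1* on the other strand cover 25.5% of the *Bak1* exon length.

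Between genotypes at day 0, none of the 9 tested members was called in the reported edgeR fit, and 1 had an unadjusted p under 0.05 (*Bcl2*). *Bcl2* was called by DESeq2 (FDR 0.00609) and by edgeR with a replicate block (FDR 0.0294), with no filter on low counts (FDR 0.00205), at equal depth (FDR 0.0499), with the GC and length offset (FDR 0.0291) and with only the 4 libraries compared (FDR 0.0214). The share of all genes called at day 0 was 1.80% (0.913% higher and 0.889% lower). *Bcl2* and *Bax* were lower in both KO-labelled libraries than in both of WT, and *Pmaip1* was higher in both, where 43.4% of all genes had no overlap between the groups (21.7% higher and 21.7% lower). The members' median difference at day 0 was 0.0064, against -0.0017 over all tested genes. At day 5, *Bcl2l1*, *Bak1*, *Bax* and *Bid* were higher in both KO-labelled libraries and no member was lower in both, where 45.6% of all genes had no overlap (25.0% higher and 20.7% lower). The median at day 5 was 0.17, against 0 over all tested genes. In the genotype by day interaction no member was called by edgeR or by DESeq2, 3 had an unadjusted p under 0.05 in edgeR (*Bak1*, *Bcl2l1* and *Bax*), and 0.159% of all genes were called. The interaction was 1.11 for *Bak1* (SE 0.39, FDR 0.277), 0.63 for *Bax* (SE 0.25, FDR 0.341) and 0.45 for *Bcl2* (SE 0.22, FDR 0.422, edgeR with Benjamini-Hochberg adjustment). For the remaining members it ranged from -0.70 (*Bcl2l11*) to 0.78 (*Bcl2l1*).

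**Figure D4:**
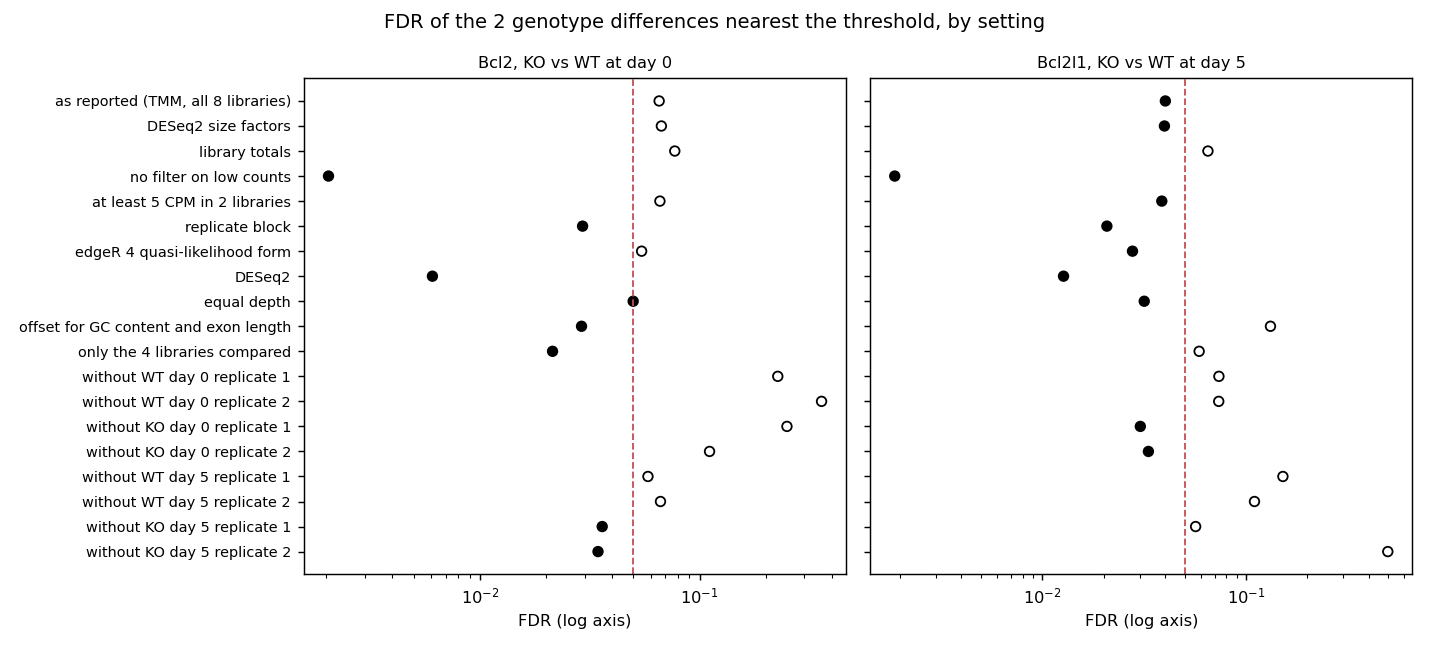
FDR (x axis, log scale) of the *Bcl2* difference between genotypes at day 0 (left) and of the *Bcl2l1* difference at day 5 (right), as reported and under 18 alternative settings (rows). The dashed line is the threshold of 0.05, and filled points passed it. *Bcl2* passed in 8 of the 18 alternatives and *Bcl2l1* in 9.

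Ordered by mean TPM at day 0, the WT cells had *Mcl1* (165 ± 1.20 TPM, SD, n = 2), *Bid* (134 ± 28.6), *Bcl2* (126 ± 12.2), *Bax* (70.7 ± 5.53), *Bak1* (40.1 ± 8.61), *Bad* (40.0 ± 0.510), *Pmaip1* (25.1 ± 1.71), *Bcl2l11* (10.5 ± 2.61), *Bcl2l1* (7.24 ± 1.32) and *Bbc3* (0.657 ± 0.0682). Of the neighbours in that order, *Bid* and *Bcl2* overlapped, as did *Bak1* and *Bad*. In the KO-labelled cells at day 0 the order was the same from *Mcl1* to *Bax*, and *Bad*, *Pmaip1* and *Bak1* overlapped at 36.7 ± 7.20, 34.5 ± 9.13 and 31.9 ± 6.44 TPM.

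At day 5 in WT the order was *Bcl2* (369 ± 33.5 TPM), *Pmaip1* (122 ± 72.6), *Bid* (105 ± 1.02), *Bax* (82.6 ± 17.2), *Mcl1* (46.7 ± 3.68), *Bad* (39.2 ± 6.37), *Bak1* (29.9 ± 6.38), *Bcl2l11* (17.2 ± 0.330), *Bcl2l1* (16.7 ± 2.94) and *Bbc3* (0.774 ± 0.219). *Pmaip1* overlapped with *Bid* and *Bax*, and *Bcl2l11* with *Bcl2l1*. In the KO-labelled cells at day 5, *Bcl2* led at 320 ± 80.6 TPM, *Bid* (120 ± 8.92), *Pmaip1* (119 ± 30.6) and *Bax* (98.4 ± 1.56) followed, and *Bcl2l1*, at 33.5 ± 9.56 TPM, ranked above *Bcl2l11*, at 13.4 ± 3.83 TPM, with no overlap between them. The summed TPM of the 5 BH3-only genes was 193 to 227 at day 0 and 238 to 330 at day 5, and that of the 3 survival genes 256 to 306 at day 0 and 333 to 459 at day 5. The ratio of the 2 sums lay between 1.15 and 1.49 at day 0 and between 1.15 and 1.72 at day 5, so that the days overlapped although *Bcl2* and *Mcl1* exchanged ranks within them. RNA does not measure the proteins, and MCL-1 and the BH3-only proteins are controlled to a large extent after transcription.

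Across the 8 libraries the log2 CPM of *Mcl1* ran opposite to that of *Bcl2* (Pearson r -0.957) and *Pmaip1* (-0.964), and that of *Bcl2l1* ran with that of *Pmaip1* (0.890). These values describe 8 libraries that fall into 2 days, and most members differed between those days. Among 7362 genes with a mean of at least 10 CPM, those with the pattern most like that of *Bcl2* were *Cradd* (Pearson r 0.994 over 8 libraries), *Txnl1* (0.993) and *Spata5* (0.993). For *Bcl2l11* they were *Nptn* (0.932), *Il10rb* (0.928) and *Uhrf1bp1l* (0.928), and for *Bax* *Ppp2r5d* (0.980), *Coro1b* (0.979) and *Sh3glb1* (0.978).

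Of 15 further family genes, 7 were tested, and 3 were higher and 1 lower in culture in each genotype, with median log2 fold changes of 0.20 in WT and 0.68 in the KO-labelled cells. These 4 of 7, and the culture counts of the lists that follow, stand beside the 48.3% and 50.2% of all genes called in WT and KO culture. Genotype counts of the lists stand beside 1.80% of all genes called at day 0 and 1.63% at day 5. *Bnip3*, which encodes a mitochondrial protein induced by low oxygen, was at 2.33 to 4.12 CPM at day 0 and 494 to 755 CPM at day 5, a log2 fold change of 7.90 in WT (SE 0.27, FDR 3.32e-10) and 7.37 in the KO-labelled cells. Its relative *Bnip3l*, a receptor for mitophagy, rose by 0.96 in WT and 0.83 in the KO-labelled cells. *Bcl2l2*, which encodes the survival protein BCL-W, had 0 counts in WT at day 0 and 2.56 CPM on average at day 5, at least 4.21-fold higher against a floor of 3 counts in each library, and was at least 5.54-fold higher in the KO-labelled cells. None of the 7 was called between genotypes at either day. Counts of the *Bcl2a1* genes are uncertain, since these near-identical copies share reads.

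Downstream of the family, 4 of the 10 apoptosome and caspase genes were higher and 3 lower in culture in WT, and 2 were higher and 2 lower in the KO-labelled cells (median -0.012 and 0.17). *Apaf1*, which forms the apoptosome with cytochrome c, was at 11.5 and 10.2 CPM in WT and 20.1 and 20.6 CPM in the KO-labelled cells at day 0. It was the 1 gene of this list called between genotypes, higher by 0.90 at day 0 (SE 0.21, FDR 0.0487, edgeR with Benjamini-Hochberg adjustment), and it rose in culture by 1.75 in WT and 0.80 in the KO-labelled cells, to 32.5 to 41.0 CPM. *Dffb*, the nuclease that cuts DNA in apoptosis, fell by 0.95 in WT and 0.77 in the KO-labelled cells.

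Of 8 tested inhibitors of apoptosis and their antagonists, 1 was higher and 1 lower in WT culture, and 1 higher and 4 lower in the KO-labelled cells (median 0.033 and -0.37). *Birc5* (survivin, also a mitotic protein) rose from 0.184 to 3.04 CPM at day 0 to 553 to 594 CPM at day 5. At day 0 it was lower by 1.92 on the log2 scale in the KO-labelled cells (FDR 0.0404, edgeR). The levels were 1.03 and 0.184 CPM against 3.04 and 2.71 CPM, from 12 and 1 counts against 17 and 12 in WT. Since 1 count lies below the floor of 3 counts, the size of this difference is uncertain. All 8 cell division genes also rose in both genotypes, with median log2 fold changes of 7.30 and 7.20. *Birc6* fell by 0.93 in WT and 1.27 in the KO-labelled cells. *Diablo*, *Xaf1* and *Birc2* fell by 0.47, 0.54 and 0.41 in the KO-labelled cells and were at 0.0031, 0.063 and -0.23 in WT, where none of them was called, and the interaction was called for no gene of the list. Of 9 genes of the outer membrane and its fission, 4 were higher and 1 lower in WT, while 4 were higher in the KO-labelled cells (median 0.26 and 0.48). *Vdac1*, which encodes a pore of that membrane, rose by 1.45 in WT and 1.61 in the KO-labelled cells, and *Mtch2*, which encodes a receptor for BID, by 0.76 and 0.73. *Mfn2* fell by 1.16 in WT and was at -0.42 in the KO-labelled cells, which was not called, and neither was its interaction (0.74, FDR 0.416, edgeR). None was called between genotypes.

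Of the 10 death receptor genes, 3 were higher and 1 lower in WT culture and 3 were higher in the KO-labelled cells (median -0.18 and 0.57). *Fasl*, the ligand by which T cells kill and are killed, was at 0.678 to 4.29 CPM at day 0 and 387 to 523 CPM at day 5, a log2 fold change of 7.47 in WT and 6.82 in the KO-labelled cells, and its receptor *Fas* rose by 0.94 and 0.69. *Tnfrsf1a* rose by 0.77 in the KO-labelled cells and was at -0.38 in WT, which was not called. Its interaction was 1.15 (FDR 0.188, edgeR), so the culture effects were not shown to differ. None of the list was called between genotypes at either day.

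Cytokine receptors that signal through STAT5 sustain *Bcl2* and *Mcl1* in T cells. The list of 10 genes was broader than such receptors, with *Il4ra*, *Jak1*, *Jak3*, *Stat5a* and *Stat5b* among them. In it 1 gene was called between genotypes at day 0 and 3 at day 5, all higher in the KO-labelled cells. The median differences of the list were 0.20 and 0.18. Of all genes, 1.80% were called at day 0 (0.913% higher) and 1.63% at day 5 (1.31% higher). *Il2rb*, the chain shared by the IL-2 and IL-15 receptors, was at 94.8 and 103 CPM in WT and 228 and 194 CPM in the KO-labelled cells at day 0, and at 314 and 269 CPM and 491 and 528 CPM at day 5. These are log2 fold changes of 1.10 (SE 0.14, FDR 0.00116) and 0.81 (SE 0.13, FDR 0.00989, edgeR with Benjamini-Hochberg adjustment), with no overlap at either day. *Il7r* fell in culture, from 986 to 1394 CPM at day 0 to 18.3 and 29.6 CPM in WT and 49.5 and 55.1 CPM in the KO-labelled cells at day 5, where it was higher by 1.14 in the KO-labelled cells (SE 0.18, FDR 0.00909, edgeR). *Il4ra* was also higher at day 5, by 0.93 (FDR 0.0401, edgeR), and *Il2ra*, the inducible IL-2 receptor chain, rose in culture by 9.65 in WT and 8.24 in the KO-labelled cells. In culture 3 genes of the list were higher and 5 lower in WT, while 2 were higher and 5 lower in the KO-labelled cells (median -0.66 and -0.37).

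Of 9 tested transcription factors known to act on the family, 3 were higher and 3 lower in WT culture, and 3 higher and 5 lower in the KO-labelled cells (median -0.21 and -0.39). *Klf2* and *Foxo1*, factors of resting T cells, fell by 2.16 and 1.29 in WT and by 2.62 and 1.58 in the KO-labelled cells, and *Myc* and *Ddit3* rose by 1.82 and 1.22 in WT and by 2.16 and 1.62 in the KO-labelled cells. *Rela*, a subunit of NF-κB, was the 1 factor called between genotypes, higher by 0.89 at day 5 in the KO-labelled cells (SE 0.15, FDR 0.0122, edgeR with Benjamini-Hochberg adjustment), at 54.5 and 54.7 CPM against 29.98 and 28.9 CPM. At that day 1.63% of all genes were called. In culture *Rela* fell by 1.37 in WT (FDR 1.06e-05) and by 0.77 in the KO-labelled cells (FDR 0.00064, edgeR). *Trp53*, which encodes p53, was lower by 0.21 in WT, which was not called, and fell by 0.39 in the KO-labelled cells (FDR 0.0284, edgeR). The *Trp53* interaction was not called (-0.18, FDR 0.770, edgeR). Of 11 tested p53 target genes, 3 were higher and 3 lower in WT culture, and 5 higher and 3 lower in the KO-labelled cells (median 0.48 and 0.72). *Cdkn1a*, the cell cycle inhibitor p21, had 1 count in each WT library at day 0 and 227 and 202 CPM at day 5, at least 353-fold higher, and at day 5 it was higher by 0.76 in the KO-labelled cells (FDR 0.0131, edgeR), at 349 and 380 CPM. *Btg2* was higher by 0.52 in the KO-labelled cells at day 0 (FDR 0.0449, edgeR) and fell in culture by 1.96 in WT and 2.20 in the KO-labelled cells.

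Among 12 genes whose products control MCL-1, BIM or BAD protein, 3 were higher and 1 lower in WT culture, and 4 higher and 2 lower in the KO-labelled cells (median 0.30 and 0.19). The PIM kinases, which phosphorylate BAD, rose: *Pim1* by 2.63 in WT and 2.44 in the KO-labelled cells, and *Pim2* by 2.27 and 2.46. *Ywhae*, a 14-3-3 protein, rose by 1.42 and 1.31, and *Huwe1*, a ubiquitin ligase for MCL-1, fell by 0.93 and 0.96. *Pim2* was at 26.3 and 23.1 CPM in WT and 14.0 and 15.4 CPM in the KO-labelled cells at day 0, lower by 0.76 (SE 0.17, FDR 0.0405, edgeR with Benjamini-Hochberg adjustment). No gene of this list was called between genotypes at day 5.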

How the data were processed

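RNA was measured in 8 libraries of mouse splenic CD8+ T cells. The authors deposited, for each library, the raw count of reads per gene symbol. Per the labels, libraries were made with an NEBNext Ultra RNA kit, and the submitters' notes name HISAT2 2.1.0, HTSeq 0.11.1 and mm10. The annotation and strand setting were not given in the sources used here. The counts carry no normalization, and whether cells of several mice were pooled for a library was not given in the sources used here. Symbols were matched to GENCODE M21 (GRCm38), 46985 of 48321 in all.

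Genes were compared by edgeR 4.0.16 (R 4.3.3) in 1 quasi-likelihood fit over 8 libraries, with TMM factors, the default filter (minimum count 10, 12597 genes) and Benjamini-Hochberg adjustment over all of them (FDR under 0.05 called, two-sided). The 5 comparisons were genotype (KO over WT) at each day, culture (day 5 over day 0) in each genotype, and their interaction. Scripts were tested on simulated data. CPM used the TMM-scaled totals, and TPM the union of exons. Totals ranged from 4170126 to 11117971 counts. Replicates differed by more than sampling noise (chi-square per degree of freedom 4.69 to 9.40) and were kept apart. Floors of 3 counts cover counting error only.

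All 10 members were named, with up to 4 genes per pathway list (called, at least 10 CPM in the higher group, largest change) and the 3 genes most like *Bcl2*, *Bcl2l11* and *Bax* (mean of at least 10 CPM, Pearson correlation of log2 CPM). *Bcl2l2*, *Birc2*, *Trp53*, *Rela* and *Il4ra* were named after their values were seen, and overlapping genes for their position. The members and lists were chosen with earlier results of these data known. The paper given with these data describes CD4+ T cells, so no culture condition was taken from it. Alternatives were DESeq2 size factors, library totals, 2 other filters, only the 4 libraries compared, a replicate block, the edgeR 4 form of the test, DESeq2 1.42.0, equal depth, a GC and length offset, the longest transcript as length, and leaving out each library. They were computed for the members and for the number of genes called, while genes of the pathway lists have the reported fit alone. Some genes that these rules would name are not reported here.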

Additional observations from a re-analysis of the deposited data

Results flagged for a closer look

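The *Bax* libraries of the 2 genotypes did not overlap at either day and lay in opposite order. Of all tested genes, 43.4% had no overlap at day 0 and 45.6% at day 5, and the share in opposite order was not counted. For *Bax*, both KO-labelled libraries lay below both WT libraries at day 0 (34.4 and 27.2 against 37.7 and 41.2 CPM) and above them at day 5 (61.6 and 59.3 against 44.6 and 54.7 CPM). The difference between these effects was 0.63 on the log2 scale (SE 0.25) and did not pass the threshold (FDR 0.341, edgeR with Benjamini-Hochberg adjustment), nor did the genotype difference at day 0 (-0.345, FDR 0.437) or day 5 (0.29, FDR 0.513). With the GC and length offset the day 0 value was -0.044 (FDR 0.963) and the interaction 0.27 (not called, edgeR), the lowest of its 17 alternatives.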

How the results depend on the processing

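Groups of 2 libraries limit each error estimate, and where a library was left out the lone library of its group was assumed to vary like the others. Of 801 member values under alternatives, 751 kept their direction and their side of the threshold. For KO against WT at day 0, the count of members called was 0 and became 1 (*Bcl2*) with no filter on low counts (FDR 0.00205), with DESeq2 (FDR 0.00609), at equal depth (FDR 0.0499), with the GC and length offset (FDR 0.0291) and with only the 4 libraries compared (FDR 0.0214), and ranged from 0 to 1 when each library was left out, being 1 without either KO day 5 library. For KO against WT at day 5, the count was 1 (*Bcl2l1*) and became 0 with library totals (FDR 0.0650), with the GC and length offset (FDR 0.132) and with only the 4 libraries compared (FDR 0.0588), and ranged from 0 to 1 when each library was left out, being 0 without either WT day 0, either WT day 5 or either KO day 5 library. The cause of these changes was not tested.

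The direction turned for values that were not called: *Pmaip1* at day 5 (-0.032) and *Bcl2l11* in KO culture (-0.059) with library totals, *Bad* in WT culture with library totals (-0.041) and the offset (-0.034), *Bad* at day 5 with the offset (-0.015), and *Bid* in KO culture with DESeq2 (0.015) or its size factors (0.0087). Leaving out each library gave these ranges. Between genotypes at day 0 they were -0.37 to 0.046 for *Bad*, -0.18 to 0.23 for *Bid* and -0.021 to 0.034 for *Mcl1*. At day 5 they were -0.038 to 0.44 for *Bad*, -0.45 to 0.047 for *Bcl2*, -0.27 to 0.034 for *Mcl1* and -0.44 to 0.71 for *Pmaip1*. In culture they were -0.13 to 0.34 for *Bad* and -0.58 to 0.0074 for *Bak1* in WT, and -0.20 to 0.41 for *Bcl2l11* and -0.18 to 0.14 for *Bid* in the KO-labelled cells. For the interaction they were -0.020 to 0.38 for *Bid*, -0.30 to 0.024 for *Mcl1* and -0.88 to 0.25 for *Pmaip1*. Values in TPM moved by over 1 SD for 23 of 40 member and group pairs with the longest transcript.

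Over all genes, calls at day 0 went from 227 to 434 with no filter and to 38 and 49 without WT day 0 replicate 1 or 2. At day 5 they went from 205 to 418 with no filter, 319 with DESeq2 and 119 with the offset, and were 121, 119, 84, 54 and 32 without WT day 0 replicate 1 or 2, WT day 5 replicate 2, and KO day 5 replicate 1 or 2. For the interaction they went from 20 to 154 with no filter, 139 with DESeq2, 33 at equal depth and 12 with the offset, and were 0, 1, 41, 3 and 4 without WT day 0 replicate 1 or 2, WT day 5 replicate 1, and KO day 5 replicate 1 or 2.

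Labels give groups the same replicate numbers without saying what they share. With the replicate block, 1 member was called at day 0 (*Bcl2*, log2 fold change -0.63, FDR 0.0294, edgeR), and the other member counts stayed at 1, 5, 6 and 0. Deviations of same-numbered libraries correlated at 0.0044 and -0.016 between genotypes at day 0 and day 5 and at 0.12 and 0.23 between days in WT and KO. They correlated at -0.01 between WT day 0 and KO day 5 and at -0.074 between KO day 0 and WT day 5. These values do not settle whether same-numbered libraries of a genotype share a mouse. The reported fit did not pair them, and the replicate block holds 1 term for both genotypes, so pairing within a genotype was not tested.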
